A study of Mus musculus with 12 samples.

Results

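The C-type lectin receptors of myeloid cells were examined through 10 genes chosen by name, Clec4a1, Clec4a2, Clec4a3, Clec4n, Clec4d, Clec4e, Clec12a, Clec7a, Clec10a and Mgl2, out of 31023 gene and feature names on the array. All 10 were on the array, each with 1 probe. The 12 arrays held macrophages sorted by flow cytometry from pancreas tumours of female C57/B6 mice aged 8 to 10 weeks, in 6 samples labelled YFP+ and 6 labelled YFP-. Tumours had been implanted, and cells were sorted straight into lysis buffer. The labels give no genotype, so the YFP mark is tied to the Flt3-Cre and LSL-YFP alleles only by the series' design text. Samples of normal pancreas and of the other mice that text mentions were not analysed here. In such mice Cre from Flt3, a gene of blood progenitors, would leave YFP on in the cells descended from them. The tumour cells used, the number of animals per sample and the share of cells that recombined are not stated.

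C-type lectin receptors are surface proteins that bind sugars, lipids or proteins of microbes and of dying cells. Dectin-1, Dectin-2, Mincle and MCL signal through immunoreceptor tyrosine-based activation motifs, on their own tail or on the adaptor Fc receptor gamma chain, to the kinase Syk and the adaptor Card9. Inhibitory members such as DCIR carry a motif that recruits phosphatases, and the macrophage galactose-type lectins take up galactose-type sugars. Macrophages and dendritic cells express many of them.

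Most of these genes lie in clusters on chromosome 6. In the RefSeq gene order Clec4a1, Clec4a3, Clec4a2, Clec4n, Clec4d and Clec4e lie in one run with Clec4a4, Clec4b1 and Clec4b2 among them. Clec12a and Clec7a lie in another run on chromosome 6, and Mgl2 and Clec10a are neighbours on chromosome 11, next to Asgr2. Because neighbours of recent common origin could share hybridisation, the 60-base probes of 13 genes were compared, 10 members and the 3 neighbours Clec4a4, Clec4b1 and Clec4b2. Over 90 probe pairs of different genes the longest run of identical bases was 9. Probes were compared only with each other and not with transcripts, so binding of a probe to a neighbour's transcript was not tested. The longest run is shown in capitals in bases 31 to 60 of the probes of Clec4a2 and Clec4a3, of which the first was above background on no array and the second on all.
Clec4a2: tctctaatctggaaTTGGTCATTttaagca
Clec4a3: acatgtgtaaacttacTTGGTCATTgtcat

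The RefSeq promoter table (GRCm38.p6) held a window for 8 of the 10 genes, from 250 bases before to 50 bases after the transcript start. The letters GAGGAA, the core bound by the myeloid factor PU.1, stood on either strand in 7 of these 8 windows (87.5%), against 31.3% of 27025 genes with a window. The letters GGAAGT, a core of other ETS factors that can overlap it, stood in 3 windows (26.5% of all genes), the AP-1 letters TGANTCA in 2 (8.97%) and the TATA box letters TATAAA in 3 (15.7%). GC box letters GGGCGG stood in 0 of 8 windows against 38.2% of all genes, and the E-box letters CACGTG also in 0, against 8.09%. The loose C/EBP letters TTNCNNAA stood in 5 (44.1%), the strict ones, TTGCGNAA, in 1 (0.918%). A composite interferon regulatory factor motif stood in 1 (3.99%) and an NF-kB motif in 0 (0.466%). These were all 10 motifs searched, on both strands, and GAGGAA is the one of the 10 held by the most members; no test was made. A match of letters is a description and not a site. The 250 bases before the start are printed 5′ to 3′ on the gene's strand for 4 genes, with GAGGAA or its reverse complement TTCCTC in capitals: Clec4a3 and Clec7a, the pair with the highest correlation over arrays until slide means were taken off, and the neighbours Clec4d and Clec4e, which encode partners in 1 receptor complex. The nearest match ended 44 bases before the start in Clec4a3, 90 in Clec7a, 234 in Clec4d and 50 in Clec4e, which held 2 matches.
Clec4a3, chr6:122952394-122952643 (+ strand): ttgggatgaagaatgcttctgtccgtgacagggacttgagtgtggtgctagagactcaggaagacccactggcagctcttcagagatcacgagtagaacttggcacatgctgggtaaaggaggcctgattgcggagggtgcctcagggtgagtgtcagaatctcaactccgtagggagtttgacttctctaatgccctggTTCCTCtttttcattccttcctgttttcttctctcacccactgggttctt
Clec7a, chr6:129472780-129473029 (- strand): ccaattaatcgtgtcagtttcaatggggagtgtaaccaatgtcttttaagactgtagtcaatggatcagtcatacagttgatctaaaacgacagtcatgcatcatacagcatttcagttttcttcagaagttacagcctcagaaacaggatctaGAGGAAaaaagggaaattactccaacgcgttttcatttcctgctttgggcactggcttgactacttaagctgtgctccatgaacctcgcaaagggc
Clec4d, chr6:123261857-123262106 (+ strand): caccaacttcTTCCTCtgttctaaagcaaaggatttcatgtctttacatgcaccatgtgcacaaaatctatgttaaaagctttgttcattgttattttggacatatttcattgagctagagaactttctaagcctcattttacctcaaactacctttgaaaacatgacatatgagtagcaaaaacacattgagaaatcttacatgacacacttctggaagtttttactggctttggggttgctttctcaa
Clec4e, chr6:123289872-123290121 (- strand): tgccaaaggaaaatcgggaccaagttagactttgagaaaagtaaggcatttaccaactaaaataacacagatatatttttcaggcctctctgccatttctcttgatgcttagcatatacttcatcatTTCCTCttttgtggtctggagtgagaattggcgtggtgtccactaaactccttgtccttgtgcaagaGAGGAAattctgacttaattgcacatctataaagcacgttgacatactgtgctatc

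The arrays differed in brightness before scaling. The 75th percentile of the signal was 3660 ± 266 in YFP+ and 2641 ± 412 in YFP- arrays (SD, n = 6 each), and it was subtracted on the log2 scale, so every level below is a log2 distance from it. The number of arrays limits the precision. The arrays lay on 3 slides of 4, each with 2 YFP+ and 2 YFP- arrays. Nothing in the labels says that the 6 samples of a group are 6 animals, so the p-values rest on the spread from sample to sample, and that spread may be technical. Of 12 macrophage marker genes all were measured, none was called, and their summed signal, in multiples of the 75th percentile, was 198 to 327 in YFP+ and 221 to 366 in YFP- arrays. Fibroblast markers fell in 7 of 9 cases, with sums of 11.7 to 32.7 in YFP+ against 49.0 to 129 in YFP- arrays. Epithelial markers fell in 4 of 8 cases, with sums of 4.92 to 11.2 in YFP+ against 15.1 to 41.5 in YFP- arrays. In the same way 1 of 5 acinar and 2 of 4 red cell markers fell, where 1.42% of all genes fell. Of dendritic cell markers of the cDC2 and monocyte-derived kind 0 of 8 were called, with sums of 7.06 to 28.2 in YFP+ and 5.71 to 20.5 in YFP- arrays. In the monocyte, cDC1, neutrophil, B lineage, T and NK and endothelial lists 0 genes were called. At limma's unadjusted p under 0.05 stood 6 of 10 measured neutrophil genes (median log2 difference -0.95), against 11.2% of all genes. The others had 3 of 7 monocyte (0.30), 2 of 4 cDC1 (0.81), 3 of 5 B lineage (0.76), 0 of 5 T and NK (0.25) and 0 of 5 endothelial genes (-0.10). Medians are over all measured genes of a list, and the neutrophil and monocyte genes under that p went both ways. Of the neutrophil ones Cxcr2 was higher in YFP+ (1.02), while Ltf, S100a9, Mpo, Camp and S100a8 were lower. Of the monocyte ones Vcan was higher (1.06), while Plac8 (-1.05) and Ly6c1 (-1.33) were lower.

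The 8 receptor genes that could be measured did not pass the test for a difference between YFP+ and YFP- macrophages. In limma's fit across 20343 genes, with Benjamini-Hochberg adjustment and a threshold of 0.05, 0 of 8 were called, where 1.75% of all genes were called (0.334% higher and 1.42% lower in YFP+). At an unadjusted p under 0.05 the count was also 0 of 8, against 11.2% of all genes. The groups overlapped for all 8, where 1.88% of all genes had no overlap. Signs of the differences were positive for 2 genes and negative for 6, where 47.2% of all genes were positive, with a median of -0.11 on the log2 scale against -0.03 over all genes. The 12 macrophage markers had 1 positive and 11 negative differences, with a median of -0.13, so this lean was not particular to the receptors. In bulk samples fewer cells of a type and less RNA per cell cannot be told apart.

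**Figure D1:**
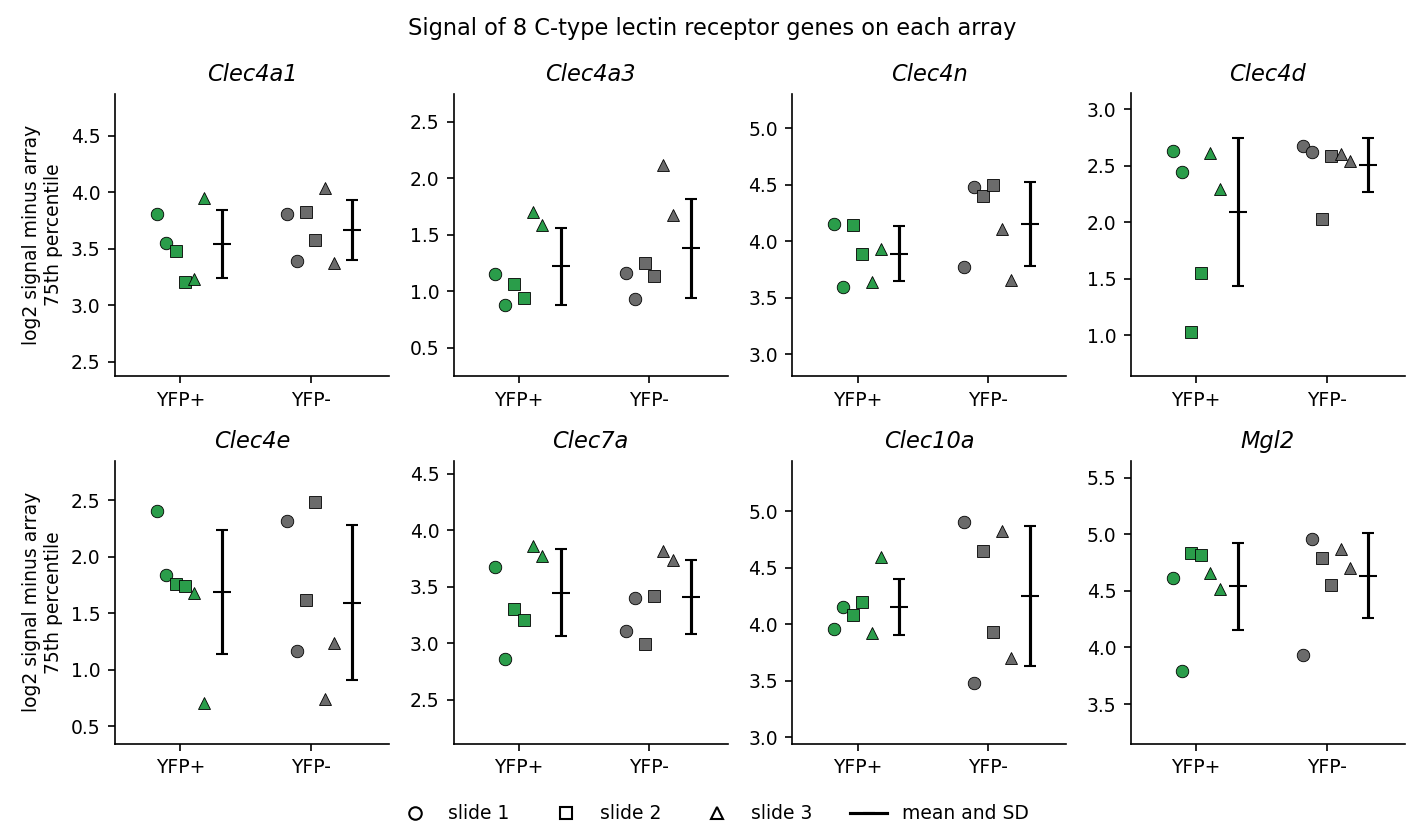
Signal of the 8 measured receptor genes on each array, in log2 units relative to the array's 75th percentile, with YFP+ left and YFP- right in each panel, the slide as the marker shape, and bars for the mean and SD of 6 arrays. The groups overlap in every panel, and Clec4d has 2 low YFP+ arrays on slide 2, at 1.03 and 1.56.

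Of the activating receptors, Clec4n encodes Dectin-2, which binds mannans. Its log2 level was 3.59 at the lowest, 3.91 at the median and 4.15 at the highest in YFP+ arrays, against 3.66, 4.25 and 4.49 in YFP- arrays. The difference was -0.26 (SE 0.21, limma adjusted p = 0.729). The 3 highest values were YFP-, and the other 3 YFP- arrays lay inside the YFP+ range.

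Clec4d encodes MCL, the partner of Mincle in binding mycobacterial glycolipid. Its levels were 1.03, 2.37 and 2.63 (lowest, median, highest) in YFP+ arrays, against 2.03, 2.60 and 2.67 in YFP- arrays. The difference was -0.42 (SE 0.29, limma adjusted p = 0.670), the farthest from 0 among the 8 genes. Most of it came from slide 2, where YFP+ samples 1 and 5 stood at 1.03 and 1.56 and the slide's YFP- mean was 2.31. Within slides 1, 2 and 3 the difference was -0.11, -1.02 and -0.12, and without slide 2 it was -0.11.

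Clec4e encodes Mincle, which senses mycobacterial cord factor and a nuclear protein released by dead cells. Its levels were 0.71, 1.75 and 2.40 in YFP+ arrays, against 0.74, 1.43 and 2.48 in YFP- arrays. Both groups covered nearly the same range, and the difference was 0.09 (SE 0.35, limma adjusted p = 0.961). Within slides 1, 2 and 3 it was 0.38, -0.30 and 0.20. This gene had the widest interval of the 8, which allows up to 1.80-fold more in YFP+.

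Clec7a encodes Dectin-1, the receptor for fungal beta-glucans. Its levels were 2.87, 3.49 and 3.86 in YFP+ arrays, against 2.99, 3.41 and 3.82 in YFP- arrays. The groups lay on top of each other, with a difference of 0.04 (SE 0.23, limma adjusted p = 0.979). Within the 3 slides the difference was 0.02, 0.05 and 0.04.

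The DCIR family members Clec4a1 and Clec4a3 sit beside each other at the start of the chromosome 6 run. Clec4a1 had levels of 3.21, 3.52 and 3.95 in YFP+ arrays, against 3.37, 3.69 and 4.04 in YFP- arrays. Its difference was -0.13 (SE 0.20, limma adjusted p = 0.886), and the ranges overlapped over most of their length. Clec4a3 had levels of 0.88, 1.11 and 1.70 in YFP+ arrays, against 0.93, 1.21 and 2.12 in YFP- arrays. Its difference was -0.16 (SE 0.24, limma adjusted p = 0.886). The high values of both groups were the 4 arrays of slide 3.

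The galactose-type lectins Clec10a, which encodes MGL1 in the mouse, and Mgl2 mark alternatively activated macrophages and some dendritic cells. Clec10a had levels of 3.92, 4.12 and 4.60 in YFP+ arrays, against 3.48, 4.29 and 4.91 in YFP- arrays. The difference was -0.10 (SE 0.28, limma adjusted p = 0.946). All 6 YFP+ values lay inside the YFP- range, with an SD of 0.24 in YFP+ and 0.62 in YFP- arrays, a contrast in spread that was not tested. Mgl2 had levels of 3.79, 4.64 and 4.84 in YFP+ arrays, against 3.93, 4.75 and 4.96 in YFP- arrays. The difference was -0.09 (SE 0.24, limma adjusted p = 0.939). Sample 6 on slide 1 was the lowest in both groups.

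Clec4a2, the inhibitory DCIR, and Clec12a, an inhibitory receptor for uric acid crystals, did not pass the filter on dim probes. The Clec4a2 probe was well above background on 0 of 6 YFP+ and 0 of 6 YFP- arrays. The Clec12a probe was well above background on 1 of 6 YFP+ arrays, sample 4 on slide 3, and on 0 of 6 YFP- arrays. Values at that floor have no order, so no fold is given for either gene. A probe that is not well above background gives only a bound and does not show that the gene is silent.

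Probe positions, in the mm9 build of the array annotation, were chr6:122884578-122884637 for Clec4a1, chr6:122919637-122919696 for Clec4a3 and chr6:123093890-123093949 for Clec4a2. Clec4n was read at chr6:123196969-123197028, Clec4d at chr6:123224788-123224847 and Clec4e at chr6:123232878-123232937 on the minus strand. Clec12a was read at chr6:129314880-129314939 and Clec7a at chr6:129411739-129411798 on the minus strand. Mgl2 was read at chr11:69950985-69951044 and Clec10a at chr11:69984254-69984313. Which exon each probe falls in was not looked up here.

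**Figure D2:**
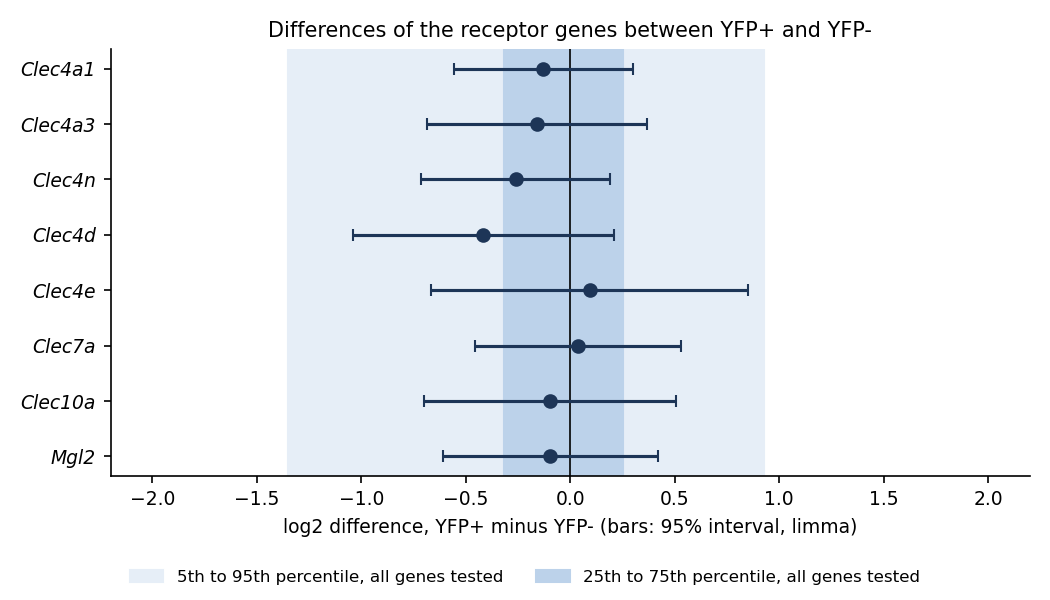
Difference of each measured receptor gene between YFP+ and YFP-, in log2 units, with limma's 95% interval as the bar and shaded bands for the middle 50% and middle 90% of differences over all genes tested. All 8 intervals span 0, and 7 of 8 stay inside a 2-fold change either way.

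All 8 estimates lay within 1.5-fold of equality, and for 7 of 8 the 95% interval lay within 2-fold of it. The exception was Clec4d, whose interval allows a level up to 2.06-fold lower in YFP+. These bounds hold for the main fit, which has no term for brightness, and intervals are given for that fit only. Under median centring, for example, Clec4e was at 0.30 (SE 0.34), against 0.09 (SE 0.35) in the main fit. With array brightness, which differed between the groups, as a covariate, Clec4d was at -0.77 and Clec4a3 at -0.75, both past 1.5-fold. In that fit Clec4n was at 0.41, Mgl2 at 0.28 and Clec7a at -0.19, each with its sign turned, and the SEs of the 8 genes were 0.30 to 0.64, so its intervals are wider (limma adjusted p of 0.458 or more). The median size of the difference, without its sign, was 0.11 for the receptors and 0.29 over all genes. Their residual SD was also on the low side, with a median of 0.39 against 0.62 over all genes, and that of Clec4a1, the steadiest, was larger than that of only 9.75% of genes. All 8 probes were bright, well above background on all 12 arrays, while the filter asked for 6 or more. All genes thus include dimmer probes, and the receptors were not compared with genes of like brightness.

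**Figure D3:**
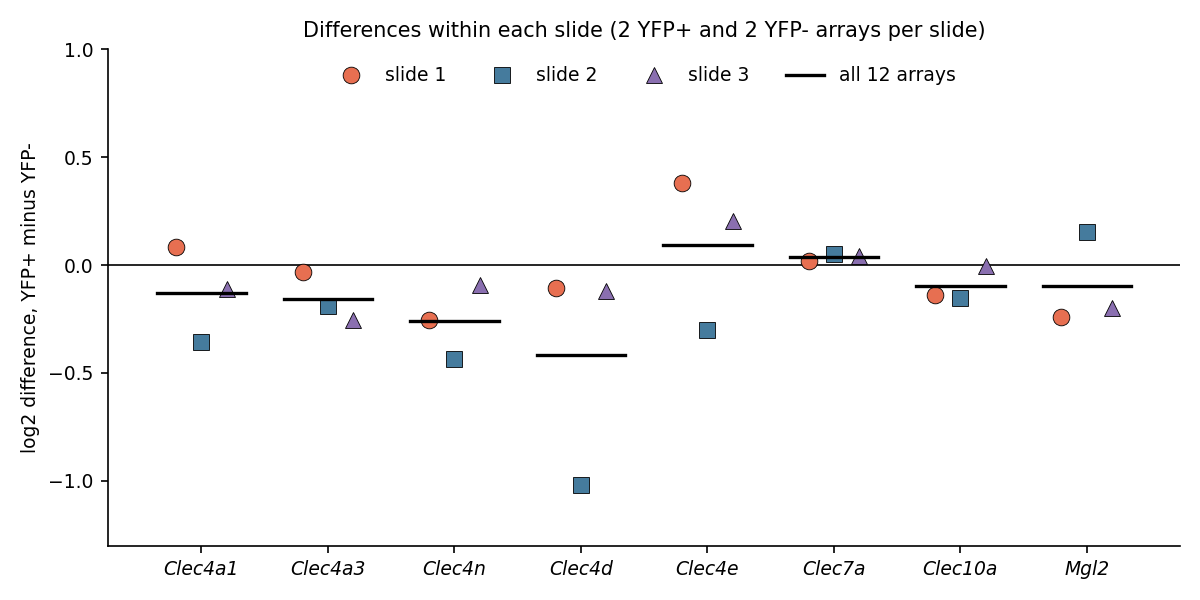
Difference between YFP+ and YFP- within each slide for the 8 measured receptor genes, in log2 units, each point the mean of 2 YFP+ arrays minus the mean of 2 YFP- arrays, with a line for all 12 arrays. Clec4d on slide 2 stands apart at -1.02, and the Clec7a points lie between 0.02 and 0.05.

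Clec4a3 differed between slides. With group as a term, limma called a difference between slides for 1 of 8 receptors (12.5%), against 20.7% of all genes. That gene was Clec4a3 (adjusted p = 0.0158), with means of 1.03, 1.1 and 1.77 on slides 1, 2 and 3. Clec7a, at 3.26, 3.23 and 3.80, had an adjusted p of 0.098 in the same limma test. Clec4d had 0.070 and Clec4e 0.154, and the others were at 0.390 or above.

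The receptors did not vary as one block over the arrays. After the group means were taken off, the 28 pairs gave Pearson's r between -0.58 and 0.79 over 12 arrays, 14 positive and 14 negative, and 0 pairs passed a permutation test with Benjamini-Hochberg adjustment over the 28. The highest was Clec4a3 with Clec7a (r = 0.79, permutation p = 0.0028, adjusted 0.077), with Spearman's rho = 0.76 (p = 0.0052, adjusted 0.145). Without the 2 farthest arrays r was 0.69, and with slide means also taken off it was 0.25. The other pair over 0.6 was Clec4a1 with Clec10a (r = 0.72, permutation p = 0.0090, adjusted 0.126), with rho = 0.61 (p = 0.039, adjusted 0.542). Without the 2 farthest arrays its r was 0.59, and with slide means off it was 0.75. The neighbours Clec4d and Clec4e, partners in 1 receptor complex, had r = 0.05 (rho = 0.03, permutation p = 0.870 and 0.938). Without the 2 farthest arrays their r was 0.17, and with slide means off it was 0.60. The counts and tests above keep slide differences in, and other pairs also changed with slide means off. Clec4n with Clec7a went from -0.05 to 0.66 and Clec4a3 with Clec4e from -0.58 to 0.22, while Clec10a with Mgl2 went from -0.33 to -0.47. Values of r with slide means off were not tested.

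Among 14090 other named genes, those closest to each receptor over the 12 arrays, with group means off, are given as a description, since arrays share slides and many genes were searched. Clec4a1 ran closest to Lamp2 (r = 0.87), a lysosomal membrane protein, followed by Vps16 and Jund (both 0.84). Clec4n ran with Erp29 (0.97), the macrophage gene Aif1 (0.96) and Usp44 (0.96). Clec4e ran with Rps6kb1 (0.93), Trem2 (0.91), a lipid receptor that signals through Tyrobp, and Tmcc1 (0.91). Clec4d ran with Cyp4v3 (0.97), Rnft1 (0.95) and Iqsec1 (0.91). Clec7a ran with Nab2 (0.97), Got1 (0.96) and Uchl4 (0.95), and Clec4a3 with Rrn3 and Anxa4 (both 0.96) and Zcchc8 (0.95). Mgl2 ran with Plet1 (0.96), Ece1 (0.95) and the receptor Tlr12 (0.93), and Clec10a with Snora74a (0.91), Galnt12 (0.90) and Vezt (0.89).

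Signalling genes downstream of the receptors did not pass the test either. Of 18 genes, all measured, limma called 0 in either direction, with 3 at an unadjusted p under 0.05 (11.2% of all genes) and a median difference of 0.13. The 3 were the kinase Src (0.80, SE 0.26, adjusted p = 0.194), the phosphatase Ptpn6 that inhibitory receptors recruit (0.38, SE 0.15, adjusted p = 0.344) and the phospholipase Plcg2 (0.55, SE 0.23, adjusted p = 0.385). Of 24 genes known to be induced through these receptors 19 were measured and limma called 0, with 1 at an unadjusted p under 0.05 and a median of -0.06. The smallest p belonged to the immediate early factor Egr1 (-0.57, adjusted p = 0.277), followed by the chemokines Ccl2 (-0.48, 0.503) and Cxcl1 (-0.56, 0.612).

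Of 9 genes listed for host ligands of these receptors 2 were lower in YFP+ and 0 higher. Over all genes 1.42% were called lower and 0.334% higher. The 9 include Sap130, listed by name, which is not the gene of Mincle's nuclear ligand. Muc1, a mucin whose sugars galactose-type lectins bind, had a mean log2 level of -1.07 in YFP+ and 1.24 in YFP- arrays and fell by 2.31 (SE 0.31, limma adjusted p = 0.0020). Anxa13, an annexin of the family that Dectin-1 recognises, was lower in YFP+ as well (limma adjusted p = 0.022), but its probe was well above background on 3 of 6 YFP+ and 6 of 6 YFP- arrays. With YFP+ values near the floor its size is not settled: the difference was -3.29 (SE 0.65) and, with normexp background correction, -1.66 (SE 0.26). The call of Anxa13 was lost without YFP+ sample 1 or 4 or YFP- sample 3. With array brightness as a covariate neither was called (limma adjusted p = 0.168 for Muc1 and 0.283 for Anxa13). Anxa1 had a difference of -0.34 (adjusted p = 0.612). Muc1 is also 1 of the 8 epithelial markers, whose lower sums in YFP+ are given above, and the part of those cells in both ligand values was not tested.

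**Figure D4:**
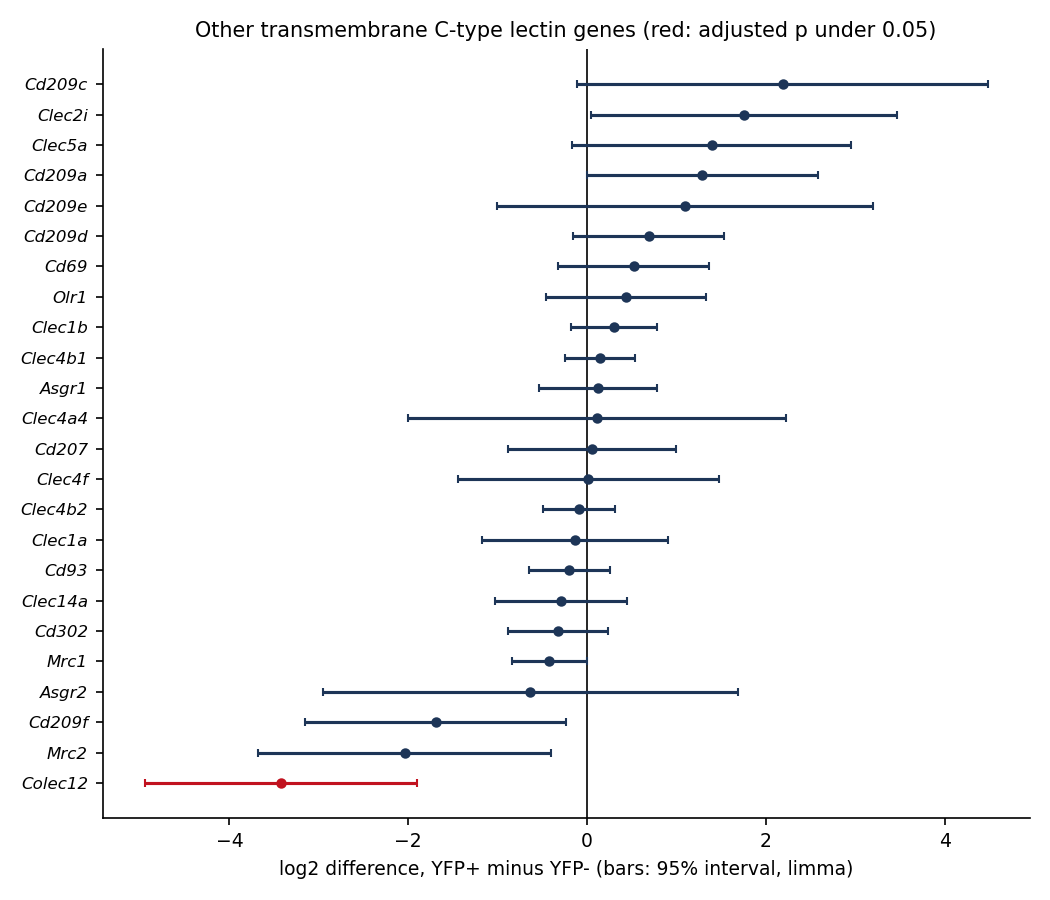
Differences between YFP+ and YFP- of 24 other transmembrane C-type lectin genes, in log2 units with limma's 95% interval, from the highest difference at the top to the lowest. Colec12, in red, is the only 1 of the 24 past an adjusted p of 0.05.

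Of 32 other transmembrane C-type lectins 24 were measured, and limma called 1, Colec12, which was lower in YFP+, as were 1.42% of all genes. Their median was 0.08, with 14 positive and 10 negative differences. At limma's unadjusted p under 0.05 the count was 5 of 24, against 11.2% of all genes. Colec12 is a scavenger receptor of endothelial and stromal cells (limma adjusted p = 0.028), and its probe was well above background on 2 of 6 YFP+ and 6 of 6 YFP- arrays, so it passed the filter mainly through YFP-. Its size is not settled either: the difference was -3.42 (SE 0.70) and, with normexp background correction, -1.60 (SE 0.30). That call was lost in 7 of the 12 fits without 1 array (without YFP+ sample 1, 4 or 6, or YFP- sample 1, 2, 5 or 6), where the adjusted p lay between 0.057 and 0.065, with the sample number as a block (adjusted p = 0.077) and with array brightness as a covariate (0.364). The fibroblast marker sums above were lower in YFP+ too, and whether they bear on Colec12 was not tested. Mrc2, a collagen receptor, had a difference of -2.04 (adjusted p = 0.285) and Cd209f one of -1.69 (0.328). The size for Mrc2 is not settled: it was -1.08 (SE 0.52) with the mean of its passing probes and -1.20 with normexp. With brightness as a covariate it was -3.78. Of the genes between the members on chromosome 6, chosen for their position, Clec4b1 had 0.14 (adjusted p = 0.851), Clec4b2 -0.09 (0.925) and Clec4a4 0.11 (0.986). The mannose receptor Mrc1 and the dendritic cell lectin Cd209a, singled out after their values were seen, had -0.42 (0.435) and 1.29 (0.450).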

How the data were processed

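RNA of 12 sorted samples was amplified as cDNA, labelled with Cy5 and hybridised to Agilent 4x44K arrays, per the labels' protocols. The deposited intensity values come from Agilent Feature Extraction 11.5.1.1, per the file headers and the submitters' processing notes; this red processed signal is already background-subtracted and not scaled between arrays. The authors' deposited table is on a log2 scale per its values, with a median of 8.83 and a 75th percentile of 11.59 in each column. Its order of probes matched the scanner signal. It served as an alternative.

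Control spots (1377) and spots flagged as outliers were left out, which left 39429 probes, 35 of them lacking a value on at least 1 array and 0 of them saturated. Values are log2 of the signal minus the array's 75th percentile. A filter kept 25435 probes, those well above background on 6 or more of the 12 arrays, and the brightest probe stood for each of 20343 genes. Names came from a RefSeq table for 28309 probes by accession, 2201 by symbol and 174 by synonym, and 8710 kept the array's name. The comparison of YFP+ with YFP- used limma (version 3.58.1, R version 4.3.3), with lmFit and eBayes and no term but the group. It was also run on simulated data, whose outcome is not given and is not relied on here. Correlations used 100000 permutations. Alternatives were the sample number or slide as a block, normexp with an offset of 50, quantile or median scaling, the deposited table, other filters and probe rules, an intensity trend, brightness as a covariate, single slides, and leaving out each array; leaving out each slide was added after seeing the data.

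The receptors and lists were chosen with earlier results of these data known. All receptors are named. Of the 4 other lists (lectins, signalling, induced genes, ligands) the called genes are named, or the 3 smallest p where fewer than 3 were called. Marker lists are given by counts, some with sums or medians. For each receptor the text names the 3 genes with the highest Pearson's r to it. The check of the named list genes under each alternative was added after their values were seen. Samples are numbered by the identifier that titles share across groups. Whether it marks 1 animal is not stated, so the numbers were not taken as pairs. Deviations of same-numbered samples from their group means correlated at -0.30 to 0.37, with 4 of 6 over 0.1. Slide means were not taken off. Numbers 4, 5 and 6, each with both samples on 1 slide, gave 0.37, 0.19 and 0.28. Numbers 1, 2 and 3, each split between slides, gave -0.30, 0.11 and -0.13. The check cannot tell a shared animal from a shared slide.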

Additional observations from a re-analysis of the deposited data

Results flagged for a closer look

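Of 16 sets of 6 arrays (8 receptors in each group), 2 held an array far from the others, by the gap to its neighbour as a share of the range, where chance gives about 1 in 20. For Mgl2 the lowest YFP+ array, sample 6 on slide 1, stood at 3.79 with the nearest other YFP+ array at 4.52. For Clec4d the lowest YFP- array, sample 5 on slide 2, stood at 2.03 with the nearest other YFP- array at 2.54. The low YFP+ arrays of Clec4d were on slide 2 as well.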

How the results depend on the processing

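The count of receptors called was 0 under every alternative run, and of 216 receptor values in 27 of them 0 were called, the smallest adjusted p being 0.325 (Clec4d, slide as a block). Without the filter on dim probes 10 receptors were tested, Clec4a2 and Clec12a included, and 0 were called. The median receptor difference lay between -0.20 and -0.05 when 1 array was left out and between -0.22 and 0.09 under 12 other alternatives. It was positive with median centring (0.09), quantile normalization (0.03) and the deposited table (0.03), so the sign of so small a median is not settled. The deposited table gave nearly the same fit as quantile normalization, with 323 genes called under each, so its 0.03 adds little. The median over all genes moved to 0.18 with median centring and 0.15 with brightness as a covariate. Median centring also put 33.5% of called genes on the higher side, against 19.1%. Over all genes, 356 were called, and 556 with slide as a block, 540 with normexp, 233 with probes above background on all 12 arrays and 13 with brightness as a covariate. Without 1 array the count was 265 to 383, without slide 1, 2 or 3 it was 150, 112 or 196 (chosen after seeing the data), and on slide 1, 2 or 3 alone limma called 0, 0 and 0, with 1848, 1799 and 1617 at an unadjusted p under 0.05. The cause was not tested, apart from the fewer arrays or genes of some fits. With the sample number as a replicate block 296 genes and 0 receptors were called, with a median of -0.11; the numbers were not taken as pairs, and of Colec12, Muc1 and Anxa13 it ended the call of Colec12; marker genes were not refitted one by one. Muc1 was called in 12 of 12 fits without 1 array, and lost its call with brightness as a covariate or without slide 1 or 2; Anxa13 and Colec12 lost theirs with brightness and without any 1 slide. Signals not well above background limit Clec4a2 and Clec12a, and the 6 arrays per group limit the rest.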
